A study of Homo sapiens with 6 samples.

Results

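The 163 genes described here are the zinc finger genes of human chromosome 19 whose symbol is ZNF followed by a digit, chosen by symbol and by the chromosome given for each transcript. They make up 163 of the 11593 listed genes, and their 325 transcript rows (of 28768) were summed per gene. The RefSeq table used for names holds 250 protein coding genes of this kind on chromosome 19, of which 65.2% were listed. The other 87 were not analysed here. FPKM, fragments per kilobase of transcript relative to the library total, were deposited for 6 libraries from SK-Hep1, a human liver cancer cell line. The series was set up to find the messenger RNAs that come down with SNHG10, a long noncoding RNA. In ChIRP, biotinylated DNA probes antisense to an RNA pull it down with whatever is crosslinked to it. In 3 libraries the probes were the complete SNHG10 set, and in 3 libraries they were a control set against LacZ, a bacterial gene. All 6 libraries share the cell line and differ by probe set. The extraction protocol in the labels describes total RNA taken with Trizol and mentions no pull-down, so the RNA fraction in the libraries cannot be told from the sources used here. The labels do not say whether the replicates were separate cultures, so p-values reflect the scatter among these 6 libraries alone, and that scatter may be technical.

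Zinc finger proteins of this kind bind DNA through tandem fingers, each folded around a zinc ion held by paired cysteines and histidines. Many also carry a KRAB domain, which binds the corepressor TRIM28. TRIM28 in turn brings the histone methyltransferase SETDB1 and heterochromatin proteins, and the bound site is silenced. Chromosome 19 holds a large share of the human KRAB zinc finger genes, in clusters that grew by local duplication, and many of their proteins bind the retrotransposons that were spreading when they arose. The symbol ZNF does not show whether a gene has a KRAB domain, and the members were not divided by it.

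The zinc finger genes of chromosome 19 were listed at low levels. Their median over the 6 libraries was 1.86 FPKM, against 2.95 FPKM for the 207 ZNF genes of other chromosomes, 10.4 FPKM for the 679 other listed genes of chromosome 19 and 6.53 FPKM for all listed genes. Means ran from 0.274 FPKM for ZNF799 to 33.7 FPKM for ZNF460. Of the 163 genes, 38 had a mean under 1 FPKM, 98 lay between 1 and 5, 15 lay between 5 and 10, and 12 reached 10 FPKM or more. These differences in level between gene groups are descriptions, with no test. In libraries made from many cells, fewer cells with a transcript and less of it per cell cannot be told apart.

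ZNF460 (chromosome 19, 57791419 to 57804937, plus strand, hg19) was the highest member, at 34.9, 29.8 and 35.0 FPKM with SNHG10 probes, against 33.4, 30.5 and 38.6 FPKM with LacZ probes. The probe sets overlapped, and the log2 difference, on the scale of log2(FPKM + 1) and with SNHG10 probes minus LacZ probes, was -0.04 ± 0.17 (SE). ZNF787 (56598732 to 56632649, minus strand) averaged 21.9 ± 3.03 FPKM with SNHG10 probes, against 24.3 ± 6.66 FPKM with LacZ probes (SD, n = 3 each). ZNF581 averaged 22.1 ± 2.19 FPKM with SNHG10 probes, against 22.4 ± 3.42 FPKM with LacZ probes. Next to it, ZNF580 averaged 21.5 ± 4.94 FPKM with SNHG10 probes, against 19.8 ± 2.57 FPKM with LacZ probes. ZNF580 and ZNF581 encode small zinc finger proteins without a KRAB domain. Their listed spans overlap by 8011 bases on the same strand, so reads could be divided between them, and their separate values are uncertain. ZNF121, whose protein is known to bind MYC, read 14.5, 15.7 and 16.4 FPKM with SNHG10 probes, against 21.8, 28.3 and 13.8 FPKM with LacZ probes. The LacZ libraries spread widely, and the lowest of them lay below all of the SNHG10 libraries. ZNF226 varied more than the others at the top, at 17.3, 1.98 and 16.9 FPKM with SNHG10 probes, against 6.92, 9.25 and 16.6 FPKM with LacZ probes. Its 1 low value stood in SNHG10 replicate 2. ZNF146, a protein made of fingers alone, averaged 9.39 ± 1.95 FPKM with SNHG10 probes, against 13.5 ± 3.61 FPKM with LacZ probes.

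**Figure D1:**
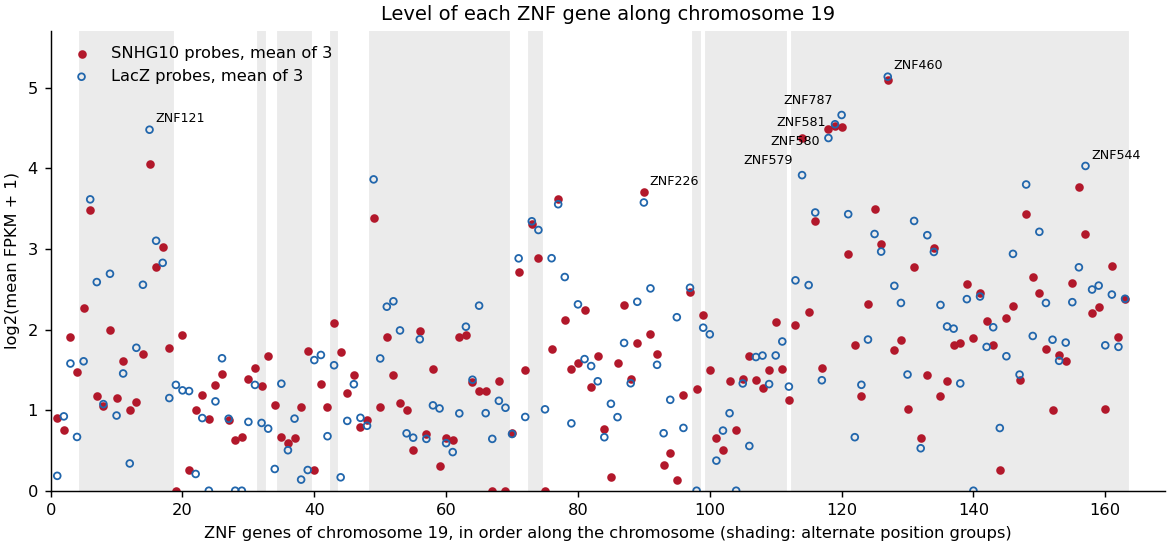
Level of each of the 163 genes, as log2 of the mean FPKM + 1, against its order along chromosome 19, with a filled point for the mean of 3 SNHG10 libraries and an open point for the mean of 3 LacZ libraries. Grey and white bands are successive position groups, and most of the high points, ZNF460 at 33.7 FPKM among them, lie in the last group.

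Levels differed along the chromosome. The members were sorted by start and divided wherever neighbouring starts lay more than 1 Mb apart, which gave 18 position groups. Of these, 6 held at least 10 members each and 134 members in all, and 5 held a single gene. The last group, near the end of the long arm from ZNF628 to ZNF446 (56.0 to 59.0 Mb), held 51 members and 54.5% of the FPKM of all 163. Its median was 4.12 FPKM, 43 of its members were above 0 in all 6 libraries, and 7 of the 12 members at 10 FPKM or more lay in it. Its summed FPKM was 313, 284 and 299 with SNHG10 probes, against 337, 331 and 294 with LacZ probes, so the probe sets overlapped. The group of 14 genes from ZNF557 to ZNF846 (7.07 to 9.90 Mb) came next among the large ones, with a median of 3.03 FPKM. Its sum was 47.6, 62.7 and 63.4 FPKM with SNHG10 probes, against 65.1, 77.5 and 71.3 FPKM with LacZ probes. All of the SNHG10 sums lay below the LacZ sums there, which held in 1 of the 18 groups. Such counts of groups have no background here, since sums over groups of other genes were not made. In 2 groups all of the SNHG10 sums lay above, that of the single gene ZNF114 and that of ZNF101 and ZNF253, whose sum was 3.96, 2.63 and 3.24 FPKM with SNHG10 probes, against 0, 1.30 and 1.43 FPKM with LacZ probes. The 23 genes from ZNF575 to ZNF296 (44.0 to 45.6 Mb) had a median of 1.88 FPKM, the 12 from ZNF175 to ZNF480 (52.1 to 52.8 Mb) 1.61 FPKM, and the 21 from ZNF146 to ZNF573 (36.7 to 38.2 Mb) 1.47 FPKM. The lowest of the large groups was that of 13 genes from ZNF653 to ZNF791 (11.6 to 12.7 Mb), with a median of 0.843 FPKM and 35.9% of its values at 0. In that group ZNF627 was highest, at 1.74, 3.79 and 2.89 FPKM with SNHG10 probes, against 1.38, 0.961 and 1.77 FPKM with LacZ probes.

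The small groups of the short arm next to the centromere were low throughout. ZNF101 led the pair from 19.8 to 20.01 Mb with a mean of 1.44 FPKM, ZNF493 the 5 genes from 21.1 to 21.6 Mb with 1.26 FPKM, and ZNF675 the 3 genes from 23.5 to 24.3 Mb with 1.86 FPKM. ZNF675 encodes an inhibitor of TRAF6 signalling. It read 3.90, 0 and 0.616 FPKM with SNHG10 probes, against 2.33, 2.47 and 1.84 FPKM with LacZ probes. Its SNHG10 libraries lay on both sides of the LacZ values. The other leading genes of groups with few members were ZNF57, ZNF333, ZNF507, ZNF599, ZNF780B, ZNF574, ZNF114, ZNF473 and ZNF331, with means between 0.701 FPKM (ZNF114) and 9.01 FPKM (ZNF574). Over 145 pairs of adjacent members within a group, the Spearman rho of their means was 0.447. These pairs were pooled over groups that differ in level, so likeness of neighbours beyond a shared group was not tested. Over 85 adjacent pairs of tested members, the rho of their log2 differences was -0.02. Both are descriptions across genes that share libraries, and neighbours can also share reads.

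Promoter entries of 300 bases, 250 before the annotated start and 50 after it, were found by symbol for 147 of the 163 genes in a RefSeq table (GRCh38.p14). They are shown for ZNF460 and ZNF787, the highest members, and for ZNF443 and ZNF799, the lowest ones with an entry, which neighbour each other and share 42 bases in a row. ZNF460 lies at chr19:57279732-57280031 (plus strand), ZNF787 at chr19:56121246-56121545 (minus strand), ZNF443 at chr19:12440972-12441271 (minus strand) and ZNF799 at chr19:12401222-12401521 (minus strand). All are written 5′ to 3′ along the gene. Capitals mark CCGGAAG, the core that ETS factors bind, and GGGCGG, the box of SP factors, on either strand, and matches that overlap run together. The entries next in level are not shown. ZNF581, at 22.2 FPKM, had the SP box and no ETS core, and ZNF615, at 0.344 FPKM, had neither.
ZNF460: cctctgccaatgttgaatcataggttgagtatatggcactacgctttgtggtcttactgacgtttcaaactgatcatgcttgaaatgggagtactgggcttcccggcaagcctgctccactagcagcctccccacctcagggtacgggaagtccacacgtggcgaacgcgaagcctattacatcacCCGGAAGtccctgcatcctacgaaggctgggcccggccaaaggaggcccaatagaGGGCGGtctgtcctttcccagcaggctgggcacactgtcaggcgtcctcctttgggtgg
ZNF787: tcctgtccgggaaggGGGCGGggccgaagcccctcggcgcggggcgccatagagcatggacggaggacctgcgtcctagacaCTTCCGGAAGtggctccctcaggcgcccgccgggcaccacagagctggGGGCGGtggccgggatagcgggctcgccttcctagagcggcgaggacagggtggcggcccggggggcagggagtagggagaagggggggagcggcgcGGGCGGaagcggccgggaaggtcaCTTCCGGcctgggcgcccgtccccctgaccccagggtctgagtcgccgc
ZNF443: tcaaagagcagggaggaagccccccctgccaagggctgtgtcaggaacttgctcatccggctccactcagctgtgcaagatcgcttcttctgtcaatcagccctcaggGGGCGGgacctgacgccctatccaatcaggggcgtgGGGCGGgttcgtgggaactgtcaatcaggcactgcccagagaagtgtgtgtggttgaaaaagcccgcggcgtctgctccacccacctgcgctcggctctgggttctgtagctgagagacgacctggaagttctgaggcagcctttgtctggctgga
ZNF799: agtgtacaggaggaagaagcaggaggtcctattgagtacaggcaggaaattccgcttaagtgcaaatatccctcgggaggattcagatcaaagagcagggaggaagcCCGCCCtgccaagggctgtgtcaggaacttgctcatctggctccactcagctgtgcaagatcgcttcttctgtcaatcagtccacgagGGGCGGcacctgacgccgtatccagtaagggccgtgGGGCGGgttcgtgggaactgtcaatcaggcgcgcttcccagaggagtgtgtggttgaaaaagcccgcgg

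The ETS core stood in 44.9% of the 147 promoters, against 38.6% of those of ZNF genes on other chromosomes, 19.98% of those of listed genes other than the members and 10.7% of all 27305 entries. The SP box was in 59.9% of them, against 63.7%, 72.0% and 44.6% of the same sets. TATAAA was in 2.04% of the members' promoters, 4.09% of those of ZNF genes on other chromosomes and 5.18% of those of the other listed genes. CGCATGCG of NRF1 was in 2.04%, 4.68% and 4.04% of the same sets, and TGACGTCA of CREB in 4.76%, 5.26% and 3.31%. The members with the CREB motif were ZNF266, ZNF426, ZNF121, ZNF561 and ZNF562, all in the same position group, and ZNF543 and ZNF547 in the last group. Among the members, the ETS core was in 52.8% of the promoters of the 36 genes with the highest mean FPKM and 38.9% of those of the 36 with the lowest. The SP box was in 66.7% of the promoters of the 36 highest and 69.4% of those of the 36 lowest, and the NRF1 motif in 2.78% and 5.56%. The median promoter held 22 CpG sites in the 36 highest genes and 18 in the 36 lowest, and over all 147 the Spearman rho between CpG count and mean FPKM was 0.232. These matches are letters in a window and no measurement of binding. Of 10731 pairs of members' promoters, 87 shared a run of at least 20 bases, and 62 of those pairs lay in the same position group. The longest run was 73 bases, between ZNF587B and ZNF814. ZNF69 and ZNF700 shared 53 bases, ZNF91 and ZNF675 43, and ZNF585A and ZNF585B 41. The transcripts of such close copies can share reads too, and how reads with several matches were assigned is not given in the sources used here.

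Values of exactly 0 were common among the members. With SNHG10 probes 30, 21 and 20 of the 163 genes were listed at 0, and with LacZ probes 33, 21 and 24. These are 18.4%, 12.9% and 12.3% with SNHG10 probes, against 20.2%, 12.9% and 14.7% with LacZ probes, against 6.45% to 7.74% of all listed genes. Among the members, replicate 1 had the most zeros in both probe sets, and the sets overlapped. Over all listed genes this held with LacZ probes, at 842 zeros. With SNHG10 probes replicate 2 had the most, 897 against 850 in replicate 1. Above 0 in all 6 libraries were 98 members (60.1%), against 72.5% of the ZNF genes of other chromosomes and 81.4% of all listed genes. The share followed the level. Between 1 and 2 FPKM, 13.9% of the values of 48 members were 0, against 13.8% for the 1144 other genes in that range. Between 0.5 and 1 FPKM the shares were 34.0% for members and 34.3% for other genes, and between 2 and 4 FPKM they were 4.63% and 5.22%. Neither 0 nor a low value can be turned into reads, because the depth is unknown, and a 0 can be a failed estimate. RRM1, which dividing cells use, was itself at 0 in SNHG10 replicate 2.

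**Figure D2:**
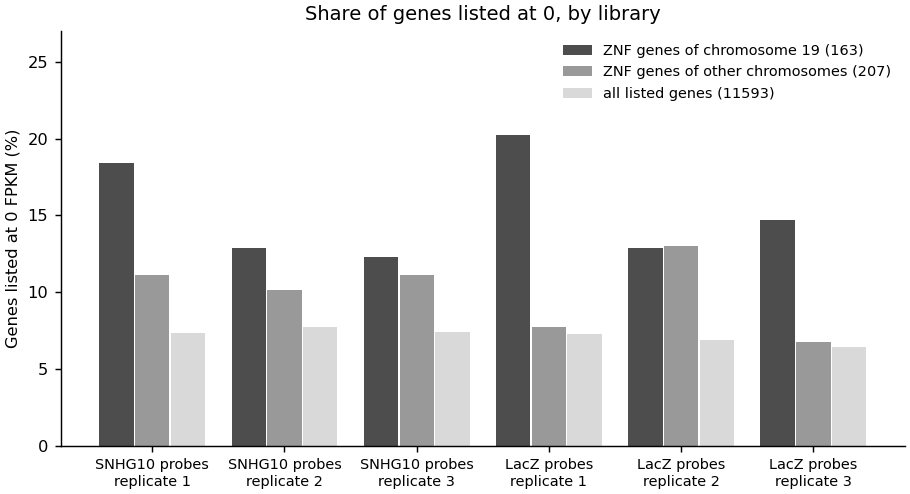
Share of genes listed at 0 FPKM in each of the 6 libraries, in percent, with a bar each for the 163 ZNF genes of chromosome 19, the 207 ZNF genes of other chromosomes and all 11593 listed genes. The dark bars lie between 12.3% and 20.2% and the palest between 6.45% and 7.74%.

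Single libraries often decided a member's value. ZNF615 was listed at 2.06 FPKM in SNHG10 replicate 1 and at 0 in the other 5 libraries. ZNF799 was at 1.65 FPKM in SNHG10 replicate 3 only, ZNF69 at 2.57 FPKM in SNHG10 replicate 2 only, and ZNF571 at 1.69 FPKM in LacZ replicate 3 only. ZNF530 read 4.61, 3.59 and 0 FPKM with SNHG10 probes, against 0 in all 3 LacZ libraries. Among tested members, ZNF586 had the widest spread within the probe sets, at 3.18, 8.52 and 0 FPKM with SNHG10 probes, against 13.9, 3.36 and 2.73 FPKM with LacZ probes. These genes were chosen after their values were seen. The median spread within a probe set, as an SD on the log2(FPKM + 1) scale, was 0.53 over tested members and 0.40 over all tested genes. Between 0.5 and 1 FPKM it was 0.30 for tested members and 0.56 for other tested genes. Few members of that range were tested, and ZNF114, ZNF653, ZNF708 and ZNF823 among them passed the filter through a single probe set. Their values in the other set were at or near 0, which lowers the spread, so the 0.30 does not show that members vary less. Between 1 and 2 FPKM it was 0.53 for both. Between 4 and 8 FPKM it was 0.60 for members and 0.45 for other genes, and between 8 and 16 FPKM it was 0.40 for both.

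In total the members held 563, 528 and 550 FPKM with SNHG10 probes, against 571, 593 and 608 FPKM with LacZ probes. The means were 547 ± 17.8 FPKM with SNHG10 probes, against 591 ± 18.5 FPKM with LacZ probes (SD, n = 3 each), and the sets did not overlap. The FPKM totals of the libraries also differed, at 268794 to 272909 with SNHG10 probes, against 271354 to 277118 with LacZ probes. As a share of each library's total, the members held 0.209%, 0.196% and 0.202% with SNHG10 probes, against 0.208%, 0.214% and 0.224% with LacZ probes. On that scale the sets overlapped, with SNHG10 replicate 1 just above LacZ replicate 1. The 10 highest members held 29.4% to 34.1% of the members' FPKM in a library.

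No member passed the test between SNHG10 and LacZ probes. Of the 163, 121 had at least 1 FPKM in at least 3 libraries and were tested in a limma fit over 10304 genes. At a Benjamini-Hochberg adjusted p of 0.05, 0 of the 121 members were called, beside 0% of all tested genes, and the smallest adjusted p of a member was 0.864. At an unadjusted limma p under 0.05 stood 10 members (8.26%), against a background of 5.42% of all tested genes. Among these 10, ZNF114, ZNF302, ZNF653, ZNF708 and ZNF823 reached 1 FPKM only in the 3 libraries of the probe set where they were high. They entered the test through that set alone, so this share is partly set by the filter. The median log2 difference of the tested members was -0.10, with 51 above 0 and 70 below. Over all tested genes the median was -0.05, with 4458 above 0 and 5846 below. Over the 170 tested ZNF genes of other chromosomes the median was -0.07. When the libraries were rescaled by median ratios, the median was -0.05 for members and -0.00323 for all genes. The order of the 2 medians turned round without the filter, at -0.0366 for members and -0.0530 for all genes, and under some other settings.

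**Figure D3:**
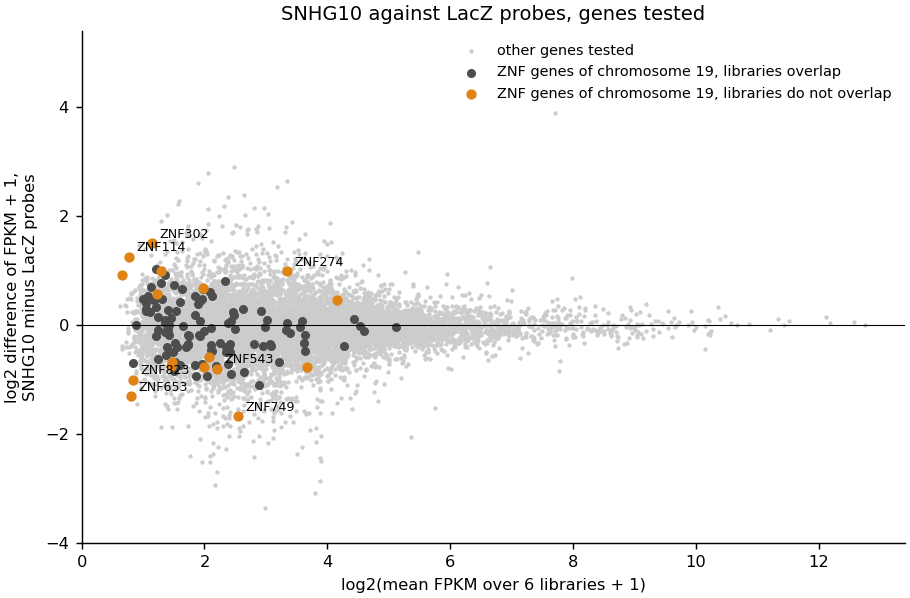
Log2 difference of FPKM + 1, SNHG10 minus LacZ probes, against the log2 mean of FPKM + 1 for the 10304 tested genes, with the 121 tested members in dark grey or, where the probe sets did not overlap, in orange. The members lie within the cloud of other genes, mostly at its low end, and ZNF302 and ZNF749 are the orange points farthest from 0.

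In 8 members all 3 SNHG10 libraries lay above all 3 LacZ libraries. That is 6.61% of the tested members, against 4.22% of all tested genes. In 9 members they lay below, 7.44% against a background of 7.21%. Such a separation carries the smallest p that an exact test of 3 against 3 libraries can give, 0.1. ZNF114, ZNF302 and ZNF708 above, and ZNF653 and ZNF823 below, reached 1 FPKM only in the libraries of the set where they were high. They passed the filter through that set alone, so their separation follows from the filter, and both shares include them.

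ZNF274 was the most abundant of the 8 after ZNF579, and its protein recruits SETDB1 to the 3′ ends of zinc finger genes, including those of chromosome 19. It lies at 58694454 to 58724920 (plus strand) and read 17.5, 8.06 and 12.1 FPKM with SNHG10 probes, against 7.71, 6.47 and 3.30 FPKM with LacZ probes. The lowest SNHG10 library and the highest LacZ library were close together. The log2 difference was 0.99 ± 0.38 (SE), with a limma adjusted p of 0.885. No row of ZNF274 was separated by itself, and different rows made up the sum in different libraries. ZNF274-205 read 8.28 FPKM in SNHG10 replicate 1 and 0 in all the other libraries. ZNF274-212 read 5.90, 0 and 12.1 FPKM with SNHG10 probes, against 2.55, 5.19 and 0 FPKM with LacZ probes. ZNF579 read 22.6, 17.7 and 18.7 FPKM with SNHG10 probes, against 16.1, 13.8 and 12.3 FPKM with LacZ probes. The lowest SNHG10 library lay just above the highest LacZ library, with a log2 difference of 0.46 ± 0.21. Neither row of ZNF579 was separated by itself. ZNF302 had the largest log2 difference, 1.4996 ± 0.40, at 1.28, 3.61 and 1.99 FPKM with SNHG10 probes, against 0.0842, 0.282 and 0 FPKM with LacZ probes. ZNF114 was listed at 1.18, 1.72 and 1.30 FPKM with SNHG10 probes and at 0 in all 3 LacZ libraries. ZNF557 read 3.19, 4.07 and 4.15 FPKM with SNHG10 probes, against 1.97, 2.71 and 1.46 FPKM with LacZ probes. ZNF101, ZNF708 and ZNF780A completed the 8, with SNHG10 means of 2.18, 1.05 and 1.82 FPKM and LacZ means of 0.705, 0.1002 and 0.885 FPKM. None of the 8 passed the adjusted limma test.

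ZNF749 had the largest difference among the 9 that lay below, at 1.09, 2.75 and 1.30 FPKM with SNHG10 probes, against 8.74, 11.4 and 3.86 FPKM with LacZ probes. LacZ replicate 3 was much lower than the other LacZ libraries and still above every SNHG10 library. The log2 difference was -1.67 ± 0.45 (SE), with a limma adjusted p of 0.864. Neither row of ZNF749 was separated by itself. ZNF749-201 read 1.09, 2.75 and 1.30 FPKM with SNHG10 probes, against 8.74, 3.57 and 1.58 FPKM with LacZ probes. ZNF544, with 8 transcript rows the most divided member, read 8.12, 8.74 and 7.49 FPKM with SNHG10 probes, against 18.998, 17.9 and 9.07 FPKM with LacZ probes. The sets nearly met at LacZ replicate 3, and the log2 difference was -0.78 ± 0.31. The rows of ZNF544 differed in direction. In ZNF544-213 all SNHG10 libraries lay above all LacZ libraries, with a log2 difference of 0.89 ± 0.55. In ZNF544-204 the SNHG10 libraries lay below, at -1.75 ± 0.53, and this row met the filter through its LacZ libraries alone. ZNF544-209 read 0, 0 and 1.64 FPKM with SNHG10 probes, against 10.3, 11.6 and 0 FPKM with LacZ probes. These rows were named after their values were seen. ZNF543 read 2.22, 1.98 and 2.89 FPKM with SNHG10 probes, against 5.08, 4.87 and 4.52 FPKM with LacZ probes. Its sets were well apart, with a log2 difference of -0.80 ± 0.30. ZNF653, known as a repressor of the nuclear receptor SF-1, was listed at 0 in all 3 SNHG10 libraries and at 1.86, 1.31 and 1.28 FPKM with LacZ probes. ZNF823 read 0.599, 0 and 0 FPKM with SNHG10 probes, against 1.68, 1.21 and 1.18 FPKM with LacZ probes. ZNF45, ZNF132 and ZNF266 had SNHG10 means of 1.99, 1.02 and 1.14 FPKM and LacZ means of 3.97, 2.49 and 2.42 FPKM. ZNF132 is known to be silenced by promoter methylation in prostate tumours. ZNF417, named after its values were seen, averaged 2.37 ± 0.721 FPKM with SNHG10 probes, against 4.03 ± 0.594 FPKM with LacZ probes. It is the close copy of ZNF587, and both proteins repress the endogenous retrovirus HERVK. ZNF587 itself read 3.96, 8.67 and 3.28 FPKM with SNHG10 probes, against 0.936, 2.03 and 5.39 FPKM with LacZ probes, and its sets overlapped.

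**Figure D4:**
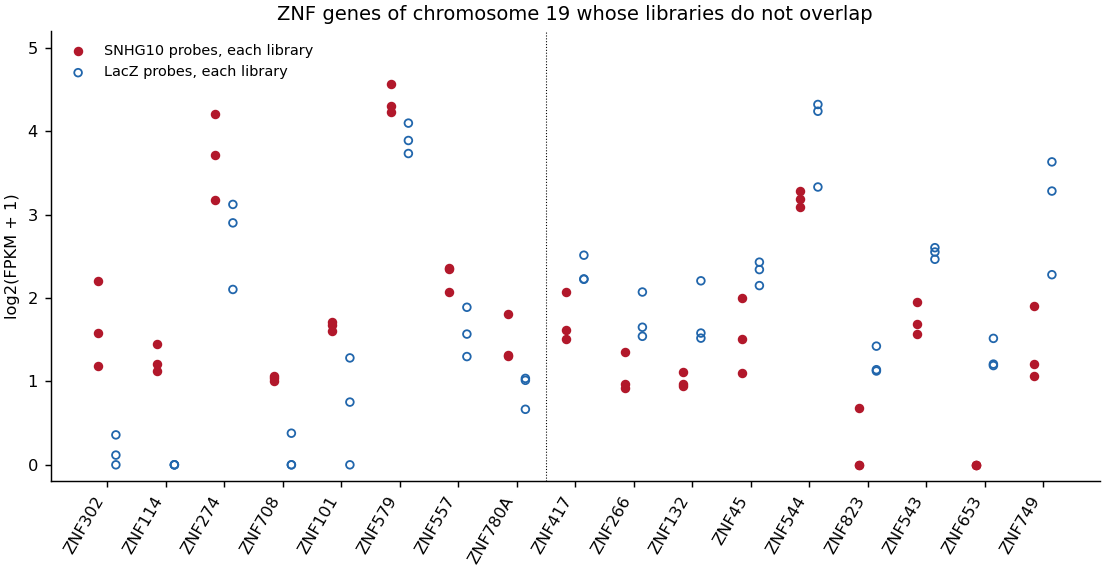
FPKM of the 17 tested members whose probe sets did not overlap, as log2(FPKM + 1), with a filled point for each SNHG10 library and an open point for each LacZ library. The 8 genes left of the dotted line were above in all SNHG10 libraries and the 9 right of it below, and the gap between the sets is narrow in ZNF274, ZNF579 and ZNF544.

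These 17 genes were spread over the chromosome. The last position group held 2 of the 8 above and 5 of the 9 below, beside 48 of the 121 tested members. ZNF653 and ZNF823 both lay in the low group from 11.6 to 12.7 Mb. Among the members that were not tested for their low values, ZNF575, named after its values were seen, was listed at 0 in all 3 SNHG10 libraries and at 1.12, 0.645 and 1.28 FPKM with LacZ probes. ZNF493 read 3.17, 0.882 and 2.91 FPKM with SNHG10 probes, against 0.585, 0 and 0 FPKM with LacZ probes.

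Of 15 members listed for a described role, 11 had listed transcripts, and ZNF93, ZNF649, ZNF765 and ZNF808 were not analysed here. ZNF91, which represses SVA retrotransposons, read 0, 0 and 0.599 FPKM with SNHG10 probes, against 0, 1.88 and 4.34 FPKM with LacZ probes. Too few libraries at 1 FPKM kept ZNF91, ZNF420 and ZNF558 out of the test. ZNF473, which works with the U7 snRNP in cutting histone messenger RNA precursors, read 0.848, 6.60 and 3.11 FPKM with SNHG10 probes, against 3.71, 2.11 and 3.37 FPKM with LacZ probes. Its SNHG10 libraries spanned the LacZ values. ZNF224, a cofactor of WT1, averaged 3.93 ± 1.49 FPKM with SNHG10 probes, against 2.56 ± 2.38 FPKM with LacZ probes (SD, n = 3 each). ZNF304, which takes part in silencing of the INK4-ARF locus, averaged 2.64 ± 0.912 FPKM with SNHG10 probes, against 4.03 ± 0.914 FPKM with LacZ probes. ZNF350, a partner of BRCA1, averaged 1.57 ± 0.785 FPKM with SNHG10 probes, against 0.947 ± 0.836 FPKM with LacZ probes. The imprinted ZNF331 averaged 1.18 ± 0.593 FPKM with SNHG10 probes, against 1.45 ± 0.0270 FPKM with LacZ probes. ZNF382, a KRAB repressor silenced in several carcinomas, averaged 1.12 ± 0.719 FPKM with SNHG10 probes, against 2.97 ± 2.63 FPKM with LacZ probes. The probe sets overlapped in each of these, and among the 11 only ZNF274 had separated libraries.

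Transcript rows gave a similar picture with more zeros. Of the 325 rows of members, 119 to 140 were at 0 in an SNHG10 library and 115 to 143 in a LacZ library, and 80 were above 0 in all 6. Of 143 rows tested, 0 were called by limma, where 15 of all 16618 tested rows (0.0903%) were, and 10 (6.99%) had an unadjusted p under 0.05, against 5.66% of all tested rows. The row with the smallest adjusted p, 0.222 by limma, was ZNF524-202 (56111388 to 56113869), listed at 0 in all 3 SNHG10 libraries and at 2.67, 4.29 and 2.15 FPKM with LacZ probes. Another row of the same gene, ZNF524-203, read 4.02, 1.75 and 1.04 FPKM with SNHG10 probes, against 0.597, 0.335 and 0.776 FPKM with LacZ probes. ZNF550 showed the same exchange between its 2 rows. ZNF550-202 read 1.85, 4.28 and 1.52 FPKM with SNHG10 probes, against 0 in all LacZ libraries, and ZNF550-201 was at 0 in all SNHG10 libraries and at 1.77, 1.76 and 1.02 FPKM with LacZ probes. How reads were divided between the rows of a gene is not given in the sources used here. ZNF473-201 read 0, 0 and 0.279 FPKM with SNHG10 probes, against 1.40, 2.11 and 1.77 FPKM with LacZ probes, while ZNF473-205 read 0.848, 6.60 and 0.542 FPKM with SNHG10 probes, against 0 in all LacZ libraries. The gene sums hid these rows, since the sums overlapped in ZNF473. These rows were chosen after their values were seen. The 2 rows named for ZNF524, both rows of ZNF550 and ZNF473-201 met the filter only through the probe set where they were high. Their separation follows from the filter, and the share of rows with a small p is partly set by it. Besides ZNF580 and ZNF581, listed spans of members overlapped in 8 more pairs, among them ZNF587 and ZNF814 on opposite strands (14798 bases), ZNF235 and ZNF233 on opposite strands (15430 bases) and ZNF559 and its readthrough ZNF559-ZNF177 on the same strand (21725 bases). Whether strand was used in counting is not given, so the values of these genes are uncertain.

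KRAB proteins act through a shared set of corepressors, whose listed means ran from 1.30 FPKM for SETD2 to 87.4 FPKM for TRIM28. Of 26 symbols fixed for the KRAB corepressor machinery, where FAM208A and TASOR name the same gene, 24 were listed and 23 tested. None was called by limma, and the smallest adjusted p was 0.885, with 8 log2 differences above 0, 15 below and a median of -0.07. Over all tested genes, 4458 log2 differences were above 0 and 5846 below. TRIM28, itself a gene of chromosome 19, read 78.4, 87.9 and 79.5 FPKM with SNHG10 probes, against 103, 88.7 and 86.6 FPKM with LacZ probes. SETDB1 read 6.83, 7.06 and 7.59 FPKM with SNHG10 probes, against 11.8, 7.22 and 5.66 FPKM with LacZ probes. The probe sets overlapped in both. Of 21 other zinc finger genes of chromosome 19 (ZFP, ZSCAN, ZBTB and related symbols), 11 were listed and 7 tested, and 0 were called, with a median log2 difference of 0.21. ZFP82, not tested and named after its values were seen, averaged 0.276 FPKM over all libraries. It read 0.256, 0.385 and 1.02 FPKM with SNHG10 probes, against 0 in all 3 LacZ libraries.

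The cell line was labelled as hepatocellular carcinoma. Among 7 markers of hepatocytes, the listed ones, CPS1 and SERPINA1, stood at no more than 1.53 FPKM in any library. CPS1 read 0.626, 0.505 and 0.796 FPKM with SNHG10 probes, against 0.883, 1.25 and 1.53 FPKM with LacZ probes, and the sets did not overlap. The rest, ALB among them, were not analysed here. Of 5 epithelial markers the keratins KRT8, KRT18 and KRT19 were listed and summed to 1818 to 2070 FPKM with SNHG10 probes, against 2007 to 2116 FPKM with LacZ probes. Within that sum KRT8 read 549, 544 and 465 FPKM with SNHG10 probes, against 601, 589 and 633 FPKM with LacZ probes, and all of the SNHG10 libraries lay below. The 4 mesenchymal markers were all listed, and their probe sets overlapped. The log2 difference was -0.44 for VIM and -0.83 for ACTA2, and 0.38 for COL3A1 and 0.19 for COL1A1. None of the tested markers passed the adjusted limma test. Of 5 endothelial markers ENG was listed, at 32.4 to 41.8 FPKM with SNHG10 probes, against 30.7 to 41.8 FPKM with LacZ probes. Of 5 leukocyte markers CD68 and CD14 were listed, with sums of 36.8 to 56.1 FPKM with SNHG10 probes, against 43.1 to 56.5 FPKM with LacZ probes. The part of these markers in the members' values was not tested.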

How the data were processed

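RNA was sequenced in 6 libraries, 3 per probe set, grouped and numbered by the sample titles. The authors' files give 1 FPKM value per transcript, per the file headers. Bowtie2 2.1.0 and the build hg19 are named in the submitters' processing notes, and the program that estimated FPKM is not given in the sources used here. Deposited values reach 5e-06 FPKM, 159 lie above 0 and under 0.001, and the lowest maximum of a row is 0.507, so whole reads could not be recovered, the depth is unknown and no counting interval was computed.

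FPKM were summed over the rows of a symbol. A gene entered the test if 3 or more libraries reached 1 FPKM, which the libraries of a single probe set could meet alone. On log2(FPKM + 1), limma 3.58.1 (R 4.3.3; lmFit, and eBayes with its trend option) gave two-sided p-values, with Benjamini-Hochberg adjustment over all tested genes. The log2(FPKM + 1) scale understates changes of low genes. Transcript rows were fitted the same way. The fit was tested on simulated data. Members and gene lists were chosen with earlier results of these data known. Named were the 8 members with the highest means, the highest of each position group, up to 8 separated members per direction by limma p, members at 0 in one probe set, and the described-role list. Other settings tried were different filters, pseudocounts and eBayes options, scaling by median ratios or quantiles, leaving out each library, and a replicate block. Planned counts of zinc fingers were not made, since no protein sequences were used here. Promoters were matched by symbol, the first entry being used where a symbol had several. pandas 2.3.3 and scipy 1.17.1 were used.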

Additional observations from a re-analysis of the deposited data

How the results depend on the processing

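No member gene and no member transcript row was called by limma under any of the 15 alternatives, and no gene of the KRAB corepressor list or of the other zinc finger list was. With the replicate block, 0 members were called and 7 had an unadjusted p under 0.05, with a smallest adjusted p of 0.886. Same-numbered libraries deviated together at r of 0.0151, 0.0121 and 0.0161, too weakly to be pairs, although each library correlated best with its own number. Over all settings, 2 to 15 members had an unadjusted p under 0.05, and the smallest adjusted p was 0.317, in limma without trend. The share of all tested genes at that unadjusted p is not given for the alternatives. Their counts of members therefore have no background here and show nothing particular to the members. At a filter of 5 FPKM, 29 members were tested, 2 of them separated above and 1 below, where the shares over all 6815 genes were 4.23% and 7.66%. Leaving out a library gave 10 to 16 members above, most without SNHG10 replicate 1, and 13 to 19 below, also most without SNHG10 replicate 1, where fewer libraries must be separated and the shares over all genes were 8.75% and 13.04%. The median log2 difference was -0.0366 for members and -0.0530 for all genes with no filter, -0.0549 and -0.00323 after scaling by median ratios, -0.0230 and -0.00259 after quantile normalization, and -0.0330 and -0.0370 with a pseudocount of 5. With a library left out it ran from -0.159 for members (-0.0611 for all genes) without LacZ replicate 2 to -0.0412 (-0.0436) without SNHG10 replicate 2, and was -0.0486 (-0.0683) without LacZ replicate 1. The members' median was thus the nearer to 0 with no filter, a pseudocount of 5 and without either of these last 2 libraries. The share of FPKM kept its direction without the mitochondrially encoded genes and with each library left out, and members listed at 0 differed by -2.33 genes on average, with 0.333 for values under 1 FPKM and -5.50 to 1.17 when a library was left out. Of 544 alternative log2 differences of the 38 tested named members, 518 kept their direction and 26 changed sign, none of them past the threshold and none of a separated member. With a library left out, the differences ran from -1.09 to 0.452 in ZNF57, -1.28 to 0.0250 in ZNF599, -0.751 to 0.201 in ZNF780B, -0.342 to 0.201 in ZNF574, -0.626 to 0.682 in ZNF226, -0.538 to 0.483 in ZNF473, -0.0665 to 0.233 in ZNF580, -0.0897 to 0.102 in ZNF581, -0.359 to 0.00504 in ZNF787 and -0.113 to 0.0519 in ZNF460. A pseudocount of 5 gave 0.0391 in ZNF57 and 0.0288 in ZNF473, quantile normalization gave 0.0203 in ZNF473, 0.0258 in ZNF581 and 0.00838 in ZNF460, and median-ratio scaling gave 0.0429 in ZNF581 and 0.0214 in ZNF460. The cause was not tested. A gap of 0.5 Mb gave 22 position groups.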
